A study of Mus musculus with 27 samples.

Results

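The macrophage libraries that had received imidazole propionate (ImP) were compared at an early and a later state, to see which transcripts returned toward their unstimulated level, which stayed up and which rose late. These are 6 of the 27 libraries of the series, and the 3 unstimulated macrophage libraries are the reference, which makes 9 macrophage libraries in all. The cells were mouse bone marrow derived macrophages (BMDMs), macrophages grown in culture from marrow progenitors. They were left unstimulated (0 h) or were given ImP, a product of histidine breakdown by gut bacteria, at 10 µg/mL for 1 or 2 h, with 3 libraries per group. The series follows the response to ImP in more than a macrophage model, and only the macrophages are described here. The labels give no strain, age, sex or animal for the macrophages, no vehicle group at 1 or 2 h and no word that replicates were separate cultures. A p-value here thus reflects the spread among these libraries alone, which could be technical, and ImP and time in culture cannot be told apart.

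The members were chosen from measured values. The early state was defined as the first and second libraries labelled 1 h (M14 and M18) with the third library labelled 2 h (M22). The later state was defined as the first and second libraries labelled 2 h (M15 and M19) with the third library labelled 1 h (M23). The labels of M22 and M23 were exchanged because of their inflammatory genes, so those genes chose the groups and cannot support them. No mean or test below uses the exchanged labels. The comparisons are given with all 9 libraries as labelled, and again in 7 libraries without M22 and M23, whose own values are then printed beside the result. Because these 2 libraries were left out on the outcome, the calls, SEs and 95% intervals of the 7-library fit all depend on that choice. The SEs and intervals are too narrow for the inflammatory genes and for other genes called between 1 and 2 h, among them Id3 and the late genes. These calls, SEs and intervals are used only to sort and size the changes, and no p-value from that fit is printed. A gene is called where edgeR's quasi-likelihood test gave a Benjamini-Hochberg adjusted p under 0.05, and "rose" and "fell" are kept for called genes. Whether the labels of these 2 libraries were exchanged at the bench was not tested.

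In resting cells the transcription factor NF-kB is held in the cytoplasm by inhibitory IkB proteins. Signals from Toll-like and cytokine receptors degrade these inhibitors, and NF-kB then induces chemokines, cytokines and its own inhibitors, among them IkB-alpha and A20. Immediate early genes such as Fos and Egr1 follow MAP kinase signalling, and proteins such as tristetraprolin (Zfp36) bring inflammatory mRNAs down by speeding their decay. Receptors of the TGF-beta and BMP family act through SMAD proteins, which induce the Id genes and the inhibitory SMADs.

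Promoter sequences are shown for genes of each course, since the genes of a course moved together. Each line gives the 250 bases before the RefSeq start on the GRCm38.p6 assembly, 5′ to 3′ on the gene's strand. The genes are the chemokines Cxcl1 (chr5:90890995-90891244, plus strand) and Cxcl2 (chr5:90903649-90903898, plus strand) and the NF-kB inhibitor Nfkbia (chr12:55492648-55492897, minus strand), which returned. Beside them stand the inhibitory SMAD gene Smad6 (chr9:64022060-64022309, minus strand), which persisted, and the transcription factor Mef2a (chr7:67372859-67373108, minus strand), which rose late. Capitals mark matches to the NF-kB motif on either strand, which was taken as GGG and TTTCC parted by any 2 bases, and the Smad6 and Mef2a windows hold none. The 3 returned genes were picked because they hold a match, so the contrast with Smad6 and Mef2a comes from the choice: the windows of the returned genes Tnf and Il1b hold none either.
Cxcl1: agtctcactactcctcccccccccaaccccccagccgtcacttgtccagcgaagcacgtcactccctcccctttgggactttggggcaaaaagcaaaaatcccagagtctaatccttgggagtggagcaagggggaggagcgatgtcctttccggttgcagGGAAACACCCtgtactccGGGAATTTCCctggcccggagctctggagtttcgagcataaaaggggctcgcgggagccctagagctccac
Cxcl2: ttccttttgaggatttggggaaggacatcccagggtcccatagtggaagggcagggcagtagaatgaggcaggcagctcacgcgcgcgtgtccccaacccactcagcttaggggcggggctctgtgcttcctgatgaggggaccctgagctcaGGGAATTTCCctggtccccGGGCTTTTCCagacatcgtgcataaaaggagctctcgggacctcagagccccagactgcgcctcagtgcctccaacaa
Nfkbia: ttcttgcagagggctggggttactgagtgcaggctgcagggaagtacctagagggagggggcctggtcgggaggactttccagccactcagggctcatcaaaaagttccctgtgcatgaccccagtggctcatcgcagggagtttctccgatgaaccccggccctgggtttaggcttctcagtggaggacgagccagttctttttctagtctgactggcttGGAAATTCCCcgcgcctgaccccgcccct
Smad6: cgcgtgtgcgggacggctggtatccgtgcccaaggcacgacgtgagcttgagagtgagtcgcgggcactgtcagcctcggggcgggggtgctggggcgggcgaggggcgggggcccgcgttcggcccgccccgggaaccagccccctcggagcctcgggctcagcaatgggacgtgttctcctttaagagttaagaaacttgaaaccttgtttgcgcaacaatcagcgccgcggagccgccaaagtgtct
Mef2a: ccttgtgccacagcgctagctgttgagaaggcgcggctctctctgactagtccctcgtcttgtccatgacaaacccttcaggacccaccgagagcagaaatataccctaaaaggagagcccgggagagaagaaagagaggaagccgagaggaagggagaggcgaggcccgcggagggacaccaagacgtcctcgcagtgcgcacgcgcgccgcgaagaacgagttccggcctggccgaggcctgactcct

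RefSeq windows were found for 63 of the 76 genes that returned, for 3 of the 5 that persisted or partly returned and for 6 of the 7 that were higher at 2 h than at 1 h. The NF-kB motif lay in 5 of the 63 returned genes (7.94%), namely Cxcl1, Cxcl2, Nfkbia, Tnfaip3 and Dusp5, against 1.65% of 27025 genes with a window and 1.81% of the 10303 of these that were tested. The cyclic AMP element TGACGTCA lay in 11.1% of the returned genes, 1.77% of all and 3.01% of those tested. The AP-1 motif TGANTCA lay in 12.7%, 7.82% and 5.67%. The SMAD motif GGCGCC lay in 22.2%, 10.8% and 18.8%, and counted by window in 15.4% of the returned and 15.9% of the tested windows. The SMAD palindrome GTCTAGAC lay in 1.59%, 0.200% and 0.233%, and the sequence TATAAA, searched on the gene's strand alone, in 19.05%, 8.94% and 4.85%. The other motifs were searched on both strands, and no motif was required not to overlap another. Of the 3 windows of persisted or partly returned genes, 0 held the NF-kB motif and 1 held GGCGCC. Of the 6 windows of genes higher at 2 h than at 1 h, 0 held the NF-kB motif and 2 held GGCGCC. These are letters in short windows and were not tested, and a window without a match says nothing about the factor.

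The macrophage libraries held 28.8 to 35.6 M counts each. The second 0 h library (M17) stood apart from the others, with a chi-square per degree of freedom of 56.4 to 88.1 against the other 8 libraries, where all other pairs gave 5.89 to 22.9. The counts led with below are therefore also given without it. Of 12 macrophage markers 11 had a mean of at least 10 CPM (a gene's counts per M counts of the library, with TMM scaling between libraries). Summed levels of T cell, B cell, dendritic cell and erythroid markers were at most 1.56 CPM in every library. Fibroblast markers summed to 6.45 to 14.2 CPM, mast cell markers to 7.04 to 10.4 CPM and endothelial markers, 3 of 7 of them at 10 CPM or more and Tek at 0, to 203 to 242 CPM. The granulocyte marker Ly6g was at 0 in all 9. The neutrophil marker sum was 10.9 to 11.4 CPM at 0 h, 14.05 to 15.5 CPM in M14 and M18, 10.6 to 11.6 CPM in M15 and M19, 12.6 CPM in M23 and 13.5 CPM in M22. The sum was highest in M14 and M18, and M22 and M23 both lay between these and the 0 h libraries. Its members differed. S100a9 was highest in M14, M18 and M22 (5.11 to 5.79 CPM), but S100a8 was lowest in M22 (2.72 CPM). Ngp was at 4.69 CPM in M23 and 4.67 CPM in M22. Any part of such cells in the inflammatory genes below was not tested. In these bulk samples fewer cells of a type and less RNA per cell cannot be told apart. The library codes of the series fall into 9 runs of consecutive numbers, of which 8 are labelled 0, 1 and 2 h in that order, and the run M21, M22 and M23 is labelled 0, 2 and 1 h.

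With the labels as given, no macrophage gene was called between 1 and 2 h. EdgeR called 0 of 13251 genes (0% of those tested in either direction). Without adjustment 218 of them had a p under 0.05, a smaller share than the 0.05 awaited with no change at all. Against 0 h these counts were 693 at 1 h and 815 at 2 h. Between 1 and 2 h DESeq2 called 1 gene, as did limma-voom. Against 0 h, 3 genes were higher at 1 h (0.0226% of those tested) and 4 at 2 h (0.0302%), and 0 were lower at either time. Among them Id2, an inhibitor of helix-loop-helix transcription factors, changed by 0.97 at 1 h (SE 0.061, edgeR adjusted p = 2.55e-06) and by 0.95 at 2 h (SE 0.061, edgeR adjusted p = 3.58e-06), log2 fold changes. Its difference between 2 h and 1 h was -0.02 (SE 0.060). The SMAD-binding repressor gene Skil (0.91 and 0.92, edgeR adjusted p = 0.007 and 0.00499) and Bhlhe40 (0.49 and 0.51, the same adjusted p-values) were called at both times, and Filip1l at 2 h. The spread of inflammatory genes within a label was large in this fit. For Cxcl2 the log2 fold change at 2 h against 1 h was -0.84 with an SE of 1.67, and for Il1b it was -0.83 with an SE of 1.75.

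In the 7 libraries, 82 genes were lower (0.609% of 13465 tested) and 7 higher (0.052%) at 2 h than at 1 h. Against 0 h, 111 genes were higher (0.824%) and 14 lower (0.104%) at 1 h, and 15 were higher (0.111%) and 1 lower (0.00743%) at 2 h. Without M17 there were 127 lower and 26 higher genes at 2 h than at 1 h, and 176 genes were called at 1 h and 29 at 2 h against 0 h. The genes were sorted by these 3 comparisons. A returned gene rose at 1 h, fell by 2 h and was not called against 0 h at 2 h, and 76 genes did so (107 without M17). A persisted gene was called higher at both times and was not called between them (4 genes), and 1 gene, Id3, partly returned. A late gene was higher at 2 h than at both earlier times (3 genes), and 4 genes were higher at 2 h than at 1 h alone. Another 5 genes were lower at 2 h than at 1 h alone. The comparisons share libraries, so a chance high value at 1 h would raise the first and lower the third.

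**Figure D1:**
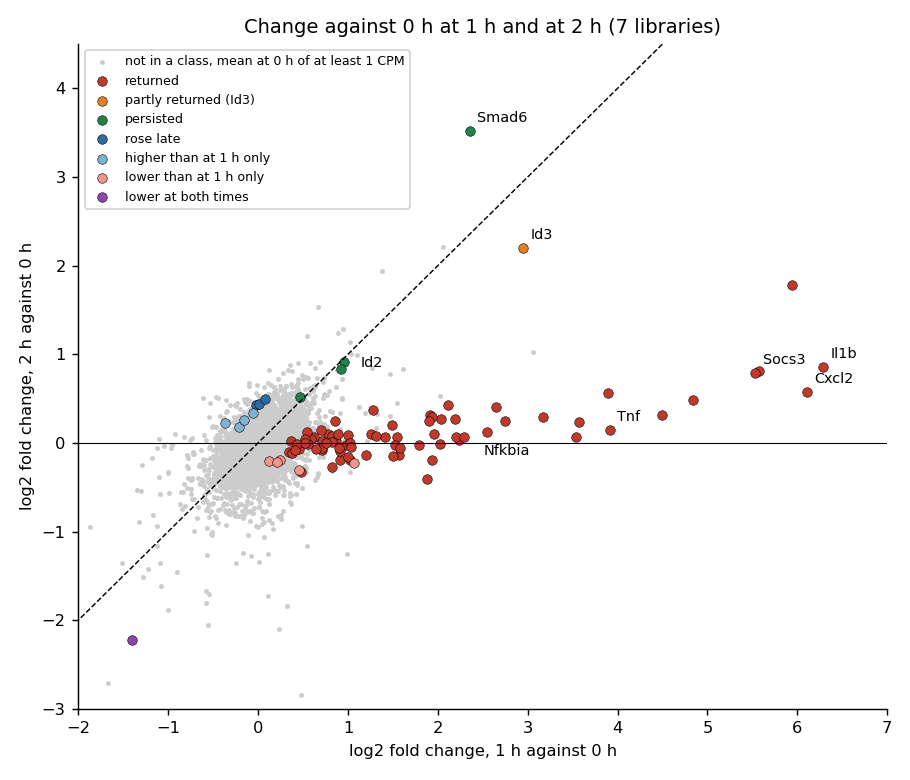
Log2 fold change at 2 h against 0 h (vertical) over that at 1 h against 0 h (horizontal), in the 7 libraries without M22 and M23, with each coloured point a sorted gene and grey points the other tested genes whose 0 h mean reached 1 CPM. Returned genes lie along the solid line of no change at 2 h while Id2 and Skil lie near the dashed line of equal change, Smad6 above it and Id3 between the 2 lines, and Olr1 is left out because it had no counts in M15 and M19.

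The class asks for a fall and for no call at 2 h against 0 h, so a small remainder is built into it, and the values here describe the 76 genes. The median log2 fold change was 1.30 at 1 h and 0.05 at 2 h against 0 h, and -1.26 at 2 h against 1 h. Over all genes tested these medians were -0.0025, 0.00085 and 0.0036. The share of the 1 h log2 change that was left at 2 h had a median of 3.47% and quartiles of -6.4 and 10.2%. In 40 of the 76 genes it lay within 10% of 0 in either direction, and in 6 genes it was above 20%. At 2 h 45 of the genes lay above 0 h and 31 below. Of the 15 with an unadjusted p under 0.05 at 2 h against 0 h, 13 were above 0 h, led by Socs3, Il1b and Tnfaip3. Over all 13465 genes tested, 1043 had such a p. The class keeps out genes called at 2 h against 0 h, and this fit leaves out M22 and M23, so the 15 only describe the class. The 1 h rise was at least 2-fold in 44 of the genes and at least 8-fold in 13.

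**Figure D2:**
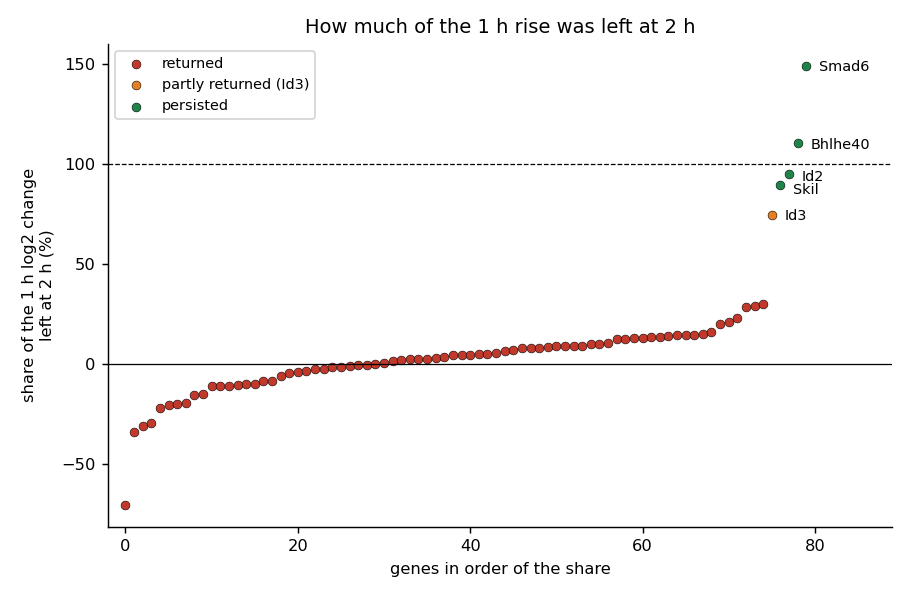
Share of the 1 h log2 change left at 2 h, in percent, for the genes that returned (75 of the 76, without Olr1), Id3 and the 4 that persisted, in order of the share, in the 7 libraries without M22 and M23. The returned genes stay at or below 30.04% whereas Id3 stands at 74.6% and Skil, Id2, Bhlhe40 and Smad6 at 89.8% to 149%.

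Of 13 chemokine genes 4 rose and fell, among them Cxcl1 and Cxcl2. Over all genes tested 0.824% rose at 1 h and 0.609% fell by 2 h. This list and those that follow were written with earlier results of these data known. Inflammatory genes also decided which libraries were left out, so the counts of called members are no independent evidence. Cxcl2, a neutrophil attractant (chromosome 5, 90903871 to 90905938, GRCm38), stood at 1.20, 1.58 and 1.22 CPM at 0 h. It reached 90.5 and 96.0 CPM in M14 and M18, and was at 1.40 and 2.63 CPM in M15 and M19. M23, labelled 1 h, held 2.63 CPM and M22, labelled 2 h, held 101 CPM. The kept 1 h libraries thus lay far above the kept 2 h ones, which overlapped the 0 h range, and each of the 2 other libraries lay beside the group of the other label. Its log2 fold change was 6.11 at 1 h (SE 0.184), 0.57 at 2 h (SE 0.251) and -5.54 between them (SE 0.209), where the SE is conditional on leaving out M22 and M23 and was 1.67 with all 9 libraries as labelled. The neighbouring Cxcl1 changed by 5.57 (SE 0.428), 0.82 (SE 0.581) and -4.76 (SE 0.472), the last not called with the block on library codes. The interferon-inducible chemokine Cxcl10 rose by 1.88 (SE 0.260) and fell by 2.29 (SE 0.305), and Ccrl2, a chemerin-binding receptor kept in the same list, rose by 1.79 (SE 0.105) and fell by 1.82 (SE 0.120). The 4 genes called at 1 h were those called between 1 and 2 h, and 0 were called at 2 h against 0 h. The list's medians were 0.32, -0.04 and -0.35 in the order 1 h against 0 h, 2 h against 0 h and 2 h against 1 h.

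Among cytokines, Il1b, which encodes interleukin-1 beta (chromosome 2, 129364570 to 129371139), had 1.33, 1.58 and 1.02 CPM in the unstimulated libraries. M14 and M18 held 106 and 101 CPM. It was then at 1.85 and 2.98 CPM in M15 and M19, at 0.955 CPM in M23 and at 112 CPM in M22. M15 and M19 lay above all 3 unstimulated libraries and M23 below them. Il1b lies opposite Il1bos, and since the strand of counting is not stated, reads of the 2 genes cannot be told apart. Tnf, the tumour necrosis factor gene (chromosome 17, 35199381 to 35202007), was at 15.22, 14 and 15.21 CPM at 0 h, 227 and 220.4 CPM in M14 and M18, 14.3 and 18.5 CPM in M15 and M19, 18.3 CPM in M23 and 266 CPM in M22. Its return left 3.79% of the 1 h log2 change. The TNF family ligand Tnfsf9, Il1a and the anti-inflammatory cytokine Il10 also fell, with log2 fold changes of -4.35 (SE 0.149), -3.33 (SE 0.188) and -2.51 (SE 0.356) at 2 h against 1 h. Of 16 cytokine and TNF family genes tested 8 rose at 1 h, 6 fell by 2 h and 0 were called at 2 h against 0 h. The shares that rose and fell over all genes were 0.824% and 0.609%. The list's medians were 0.74, 0.19 and -0.80. The 8 included Il12b and Osm, whose differences at 2 h against 1 h of -3.90 (SE 0.938) and -0.78 (SE 0.165) were not called.

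Of 12 inhibitors and feedback genes of NF-kB, 6 rose at 1 h and 7 fell by 2 h, against 0.824% and 0.609% of all genes tested. Nfkbia, which encodes IkB-alpha (chromosome 12, 55489410 to 55492647), was at 39.9, 36.2 and 36.7 CPM at 0 h, 224 and 215 CPM in M14 and M18, and 45.0 and 36.8 CPM in M15 and M19. M23 held 40.9 CPM and M22 232 CPM. The groups at 0 h and 2 h overlapped, and the 2 kept 1 h libraries stood far above both. The fall between 1 and 2 h was 2.42 on the log2 scale (SE 0.097). Nfkbiz, which encodes the nuclear cofactor IkB-zeta, was at 5.55, 6.09 and 5.82 CPM at 0 h, 132 and 131 CPM in M14 and M18, 6.43 and 8.10 CPM in M15 and M19, 7.23 CPM in M23 and 137 CPM in M22. It fell by 4.18 (SE 0.115). Tnfaip3, which encodes the ubiquitin-editing enzyme A20, was at 59.4 to 64.1 CPM at 0 h, 233 and 232 CPM in M14 and M18, 70.6 and 77.3 CPM in M15 and M19, 79.8 CPM in M23 and 263 CPM in M22. M15, M19 and M23 all lay above its 0 h range, and 13.03% of its 1 h log2 change was left. The others of the 6 were Nfkbie, Nfkbid and Bcl3, and Tnip3 fell with them. The medians were 0.62, 0.09 and -0.72. Of the 5 NF-kB subunit genes Rel, Relb and Nfkb2 rose at 1 h, by 0.44 (SE 0.079), 0.53 (SE 0.091) and 0.49 (SE 0.101), and 0 were called at 2 h in either comparison. Their differences at 2 h against 1 h were -0.40 (SE 0.087), -0.47 (SE 0.101) and -0.37 (SE 0.112), and all 3 were called lower without M17.

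**Figure D3:**
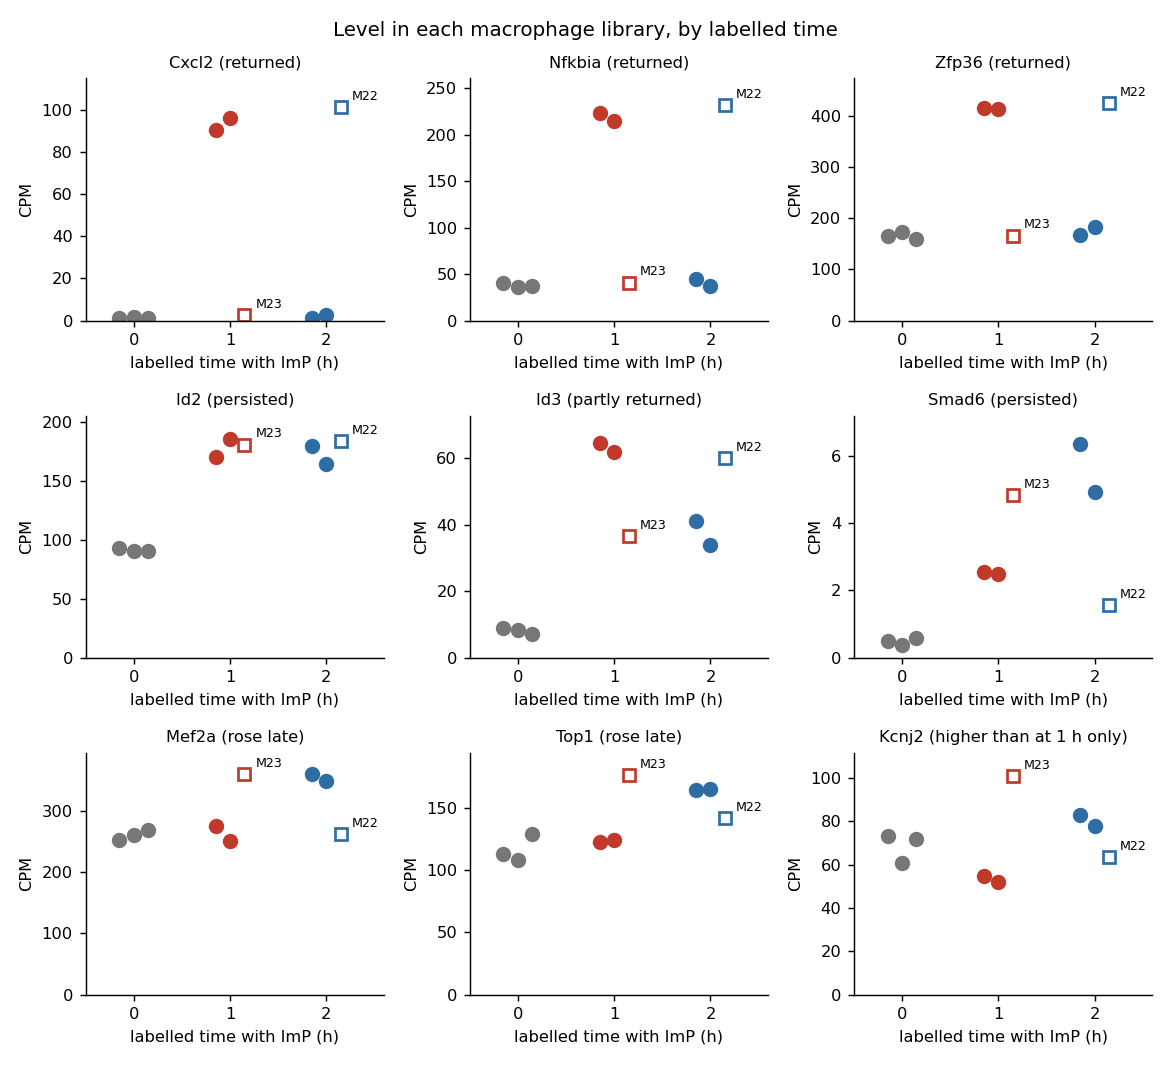
CPM of 9 genes in each of the 9 macrophage libraries by labelled time, with filled circles for the 7 libraries of the fit and open squares for M23 (labelled 1 h) and M22 (labelled 2 h). The top row shows genes that returned, the middle row genes that persisted or partly returned and the bottom row genes higher late, and the 2 squares lie far apart for Cxcl2 (2.63 and 101 CPM) but together for Id2 (181 and 184 CPM).

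Of the SOCS genes and the genes of mRNA decay and processing, Socs3 and 3 mRNA decay genes rose and fell, and most members were not called. Socs3, which encodes an inhibitor of cytokine receptor signalling (chromosome 11, 117966079 to 117970047), was at 1.11, 1.06 and 0.992 CPM at 0 h, 48.6 and 49.5 CPM in M14 and M18, 1.53 and 2.14 CPM in M15 and M19, 1.24 CPM in M23 and 51.5 CPM in M22. Socs3 in M15, M19 and M23 lay above every unstimulated library, by small amounts. It was the only 1 of 9 SOCS and related genes called, and it fell by 4.75 (SE 0.162). Zfp36, which encodes tristetraprolin (chromosome 7, 28376784 to 28380253), was at 166, 174 and 161 CPM at 0 h, 416 and 415 CPM in M14 and M18, 168 and 184 CPM in M15 and M19, 166 CPM in M23 and 426 CPM in M22. M15, M19 and M23 lay in or just above the 0 h range. Zfp36 overlaps the predicted gene Gm44710 on the opposite strand. Of 12 genes of mRNA decay and processing tested 4 rose at 1 h and 3 fell by 2 h, namely Zfp36, its relative Zfp36l1 and the RNase gene Zc3h12a. In this list 1 gene, the poly(A) polymerase gene Tent5c, was higher at 2 h than at 0 h. The list's medians were 0.15, 0.08 and -0.02. Zc3h12c, of the same RNase family, rose by 0.83 at 1 h (SE 0.102) and had a difference of -0.47 (SE 0.112) at 2 h against 1 h, which was called without M17 but not with it.

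Of 11 immediate early genes that rose at 1 h, 7 fell by 2 h. Egr1, a zinc-finger factor, was at 20.95, 21.01 and 22.6 CPM at 0 h, 101 and 97.2 CPM in M14 and M18, 22.05 and 23.1 CPM in M15 and M19, 20.3 CPM in M23 and 115 CPM in M22. Nr4a1, an orphan nuclear receptor, was at 11.9, 12.0 and 13.3 CPM at 0 h, 45.2 and 49.5 CPM in M14 and M18, 15.5 and 14.7 CPM in M15 and M19, 15.05 CPM in M23 and 44.2 CPM in M22. Egr1 came back into its 0 h range in M15 and just above it in M19, whereas M15, M19 and M23 stayed above the 0 h range for Nr4a1. Of 26 immediate early genes tested 11 rose at 1 h, 7 fell by 2 h and 0 were called at 2 h against 0 h. The shares that rose and fell over all genes were 0.824% and 0.609%. The list's medians were 0.66, 0.13 and -0.56. The 7 were Egr1, Nr4a1, Ier3, Csrnp1, Maff, Egr2 and Fos. Of 22 genes of MAP kinase phosphatases and related feedback 8 rose at 1 h and 7 fell by 2 h, with medians of 0.59, 0.15 and -0.52. The dual-specificity phosphatase gene Dusp1 was at 33.5, 26.5 and 33.1 CPM at 0 h, 120.0 and 114 CPM in M14 and M18, 35.9 and 41.1 CPM in M15 and M19, 39.8 CPM in M23 and 119 CPM in M22. It rose by 1.91 (SE 0.101) and fell by 1.60 (SE 0.114), and Dusp5 fell by 1.35 (SE 0.147).

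Of the lists of secondary NF-kB response genes, Toll-like receptors and interferon response genes, the first held the most called genes. The others held few, so little can be said of them as lists. Of 27 secondary NF-kB response genes tested 11 rose at 1 h, 11 fell by 2 h and 0 were called at 2 h against 0 h. The shares that rose and fell over all genes were 0.824% and 0.609%. The list's medians were 0.63, 0.02 and -0.61. Acod1, which makes itaconate, fell with a log2 fold change of -3.47 (SE 0.291) and the prostaglandin synthase gene Ptgs2 with -3.32 (SE 0.301). The C-type lectin gene Clec4e fell with -1.48 (SE 0.105) and the kinase gene Pim1 with -1.33 (SE 0.085). Of 21 Toll-like receptor and adaptor genes 2 rose and returned, Tlr2 and the co-receptor gene Cd14, with log2 fold changes of -1.16 (SE 0.095) and -0.52 (SE 0.094) at 2 h against 1 h. Of 22 interferon response genes 1 rose at 1 h, the transcription factor gene Irf1, and 2 fell by 2 h, Irf1 (-1.54, SE 0.097) and the guanylate-binding protein gene Gbp5 (-1.29, SE 0.253). That list's medians were -0.13, -0.09 and 0.05.

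Olr1, which encodes a scavenger receptor for oxidised LDL, had the largest fitted fall but few counts. It had 1, 2 and 7 counts at 0 h, 70 and 57 counts in M14 and M18, and 0 in M15 and M19, while M23 had 7 and M22 had 77. It was at least 38.5-fold lower in the 2 kept 2 h libraries than in the 2 kept 1 h libraries, against a floor of 3 counts over the group. Mir155hg, the host transcript of a microRNA, lay at 0 to 0.0634 CPM at 0 h, at 2.31 and 3.23 CPM in M14 and M18, at 0.0636 and 0.245 CPM in M15 and M19, at 0.203 CPM in M23 and at 5.18 CPM in M22. It kept the largest share of its rise among the returned genes, 30.04%, on low counts. Of the 76 returned genes 50 belonged to a list and 26 to none.

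A further 30 genes rose at 1 h and were called neither as lower at 2 h than at 1 h nor as higher at 2 h than at 0 h. All 30 had a negative value at 2 h against 1 h, with a median of -0.38, and a median of 27.2% of the 1 h change was left. They included the 3 NF-kB subunit genes, Il12b, Osm, Zc3h12c and Smad7. Of the 14 genes lower at 1 h, 13 were called in neither later comparison, with a median of 60.4% of the change left. They held 5 of 77 cytosolic ribosomal protein genes, such as Rpl35 (-0.43, SE 0.087), and 2 of 13 mitochondrially encoded genes. Of these mt-Co3, a subunit of cytochrome oxidase, was at 2425, 2798 and 2653 CPM at 0 h, 1879.8 and 2092 CPM in M14 and M18, 2291 and 2366 CPM in M15 and M19, 2707 CPM in M23 and 2522 CPM in M22. M14 and M18 were the lowest of the 9 libraries, and M22 lay within the 0 h range. The mitochondrial list had medians of -0.31, -0.11 and 0.21, and the ribosomal list -0.17, -0.15 and 0.01.

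The 5 transcripts sorted as persisted or partly returned belong to the TGF-beta and BMP target list, which was written with earlier results of these data known and is no independent evidence. Genes outside it had high values at both times too. Cyth1, which encodes a guanine nucleotide exchange factor, was at 54.1 to 68.3 CPM at 0 h and 77.6 to 90.8 CPM in the 6 ImP libraries, kept 99.9% of its 1 h log2 change and missed the call at 2 h. Filip1l was at 9.92 to 12.7 CPM at 0 h and 18.03 to 23.2 CPM in the 6 ImP libraries, kept 95.2% and was called at 2 h with all 9 libraries as labelled but not in the 7. DESeq2 sorted 9 genes as persisted and a fit with no low-count filter 39, against 4. Id2 (chromosome 12, 25093799 to 25097140) was at 92.9, 90.6 and 90.5 CPM at 0 h, 170.0 and 185 CPM in M14 and M18, 179.5 and 164 CPM in M15 and M19, 181 CPM in M23 and 184 CPM in M22. All 6 ImP libraries lay above all 3 unstimulated ones, whatever their label, and the 1 h and 2 h libraries overlapped. The difference at 2 h against 1 h was -0.05 (95% interval -0.21 to 0.11). Skil, which encodes a SMAD-binding repressor (chromosome 3, 31095058 to 31122577), was at 55.1, 66.6 and 71.6 CPM at 0 h, 127 and 117 CPM in M14 and M18, 121 and 108 CPM in M15 and M19, 118 CPM in M23 and 137 CPM in M22. It too was higher in all 6 ImP libraries, with a difference at 2 h against 1 h of -0.09 (95% interval -0.34 to 0.16). Bhlhe40, a transcription factor of the clock and of macrophage activation (chromosome 6, 108660629 to 108666925), had 35.3, 35.1 and 34.6 CPM at 0 h, against 48.5 to 50.4 CPM in the 6 ImP libraries. Its difference at 2 h against 1 h was 0.05 (95% interval -0.12 to 0.22). Skil and Bhlhe40 were not sorted as persisted without M15, without M19 or with a block on the runs of library codes, nor was Bhlhe40 without M14, M18 or the third 0 h library (M21), while Id2 was in each of these. On the opposite strand 0610040F04Rik overlaps Bhlhe40.

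The other 2 genes of this kind differed between 1 and 2 h in opposite directions. Id3, an inhibitor of the same family as Id2 (chromosome 4, 136143497 to 136145755), was at 8.94, 8.33 and 7.21 CPM at 0 h, 64.5 and 61.7 CPM in M14 and M18, 41.2 and 33.9 CPM in M15 and M19, 36.6 CPM in M23 and 59.9 CPM in M22. It fell by 0.75 between 1 and 2 h (95% interval -0.99 to -0.50 for the difference) and was still 2.20 above 0 h (SE 0.110). With all 9 libraries as labelled its difference at 2 h against 1 h was -0.27 (SE 0.279). Smad6, which encodes an inhibitory SMAD that acts on BMP receptors (chromosome 9, 63953076 to 64022059), was at 0.507, 0.374 and 0.595 CPM at 0 h, 2.56 and 2.50 CPM in M14 and M18, 6.36 and 4.91 CPM in M15 and M19, 4.83 CPM in M23 and 1.57 CPM in M22. Its log2 fold change was 2.36 at 1 h (SE 0.295) and 3.52 at 2 h (SE 0.289). The difference of 1.16 (95% interval 0.54 to 1.77) was not called, but was without M17, where Smad6 counted among 8 genes that rose late. For Id3 the kept 2 h libraries lay below the kept 1 h ones, and for Smad6 above them. In both genes M23 lay near the kept 2 h libraries, and M22 was nearer the kept 1 h ones. The outcome had placed M22 and M23, and how many of all genes separate in this way was not counted.

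Of 18 TGF-beta and BMP targets tested 7 rose at 1 h, 5 were higher at 2 h than at 0 h, and 2 fell between the times, Id3 and Sgk1. The list's medians were 0.38, 0.24 and 0.01. Sgk1, a kinase gene that glucocorticoids also induce, went from 51.2 to 53.8 CPM at 0 h to 97.8 and 89.1 CPM in M14 and M18 and back to 53.8 and 52.5 CPM in M15 and M19. M23 held 48.3 CPM and M22 97.6 CPM, so this gene took the course of the inflammatory genes. Smad7, the other inhibitory SMAD gene, rose by 0.93 at 1 h (SE 0.193), and its value of 0.72 at 2 h (SE 0.196) was not called. Id1 had values of 1.38 (SE 0.328) and 1.93 (SE 0.324), not called at either time. Among 16 genes of TGF-beta and BMP receptors and SMADs 0 were called in any of the 3 comparisons, which says little given the small shares called over all genes.

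Few transcripts rose late, and none reached a 2-fold difference. Mef2a, a myocyte enhancer factor (chromosome 7, 67231163 to 67372858), was at 253, 259.8 and 269 CPM at 0 h, 275 and 251 CPM in M14 and M18, 360.1 and 349 CPM in M15 and M19, 359.6 CPM in M23 and 262 CPM in M22. It rose by 0.43 between 1 and 2 h (95% interval 0.28 to 0.58), against 0.13 (SE 0.157) with all 9 libraries as labelled. M15, M19 and M23 lay above the other 6 libraries, though the outcome had put M23 with M15 and M19. Mef2a overlaps Lysmd4 on the opposite strand. Of 7 myocyte enhancer factor and class IIa deacetylase genes it was the only 1 called.

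Top1, which encodes DNA topoisomerase (chromosome 2, 160645888 to 160722764), was at 113, 108 and 129 CPM at 0 h, 122 and 124 CPM in M14 and M18, 164 and 165 CPM in M15 and M19, 176 CPM in M23 and 142 CPM in M22. Its rise was 0.42 (95% interval 0.24 to 0.59), with M22 between the 2 kept groups, and 0.15 (SE 0.145) with all 9 libraries as labelled. Kcnj2, an inward-rectifier potassium channel gene (chromosome 11, 111066164 to 111076821), was higher than at 1 h alone. Its levels were 73.0, 60.8 and 71.9 CPM at 0 h, 54.7 and 51.8 CPM in M14 and M18, 82.6 and 77.7 CPM in M15 and M19, 101 CPM in M23 and 63.2 CPM in M22. The kept 1 h libraries lay below 0 h and the kept 2 h libraries above it, neither called, with 0.59 between them (95% interval 0.39 to 0.79). With all 9 libraries as labelled that difference was 0.11 (SE 0.273). The integrin gene Itgav differed by 0.42 (SE 0.078), the ERK phosphatase gene Dusp7 by 0.39 (SE 0.069) and Fnip2, which encodes a folliculin-interacting protein, by 0.40 (SE 0.075). Dusp7 thus went against the 7 members of its list that fell.

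The calls for the higher genes depended on single libraries, and so did those for some of the lower genes. Itgav, Top1, Dusp7 and Fnip2 lost theirs without any 1 of M14, M18, M15 and M19, and Mef2a and Kcnj2 without M18, M15 or M19. Of the lower genes, Ets2, Ppp1r10, Lilr4b and Cd14 lost theirs without any 1 of M14, M18, M15 and M19. Gbp5 and Olr1 did so without M14, M15 or M19, and Tnip3 without M18, M15 or M19. Cxcl2, Il1b, Tnf and Nfkbia kept theirs in all of these. In each case a group was left with 1 library. Gbp5, Ets2, Ppp1r10 and Lilr4b also lost their calls with a block on the runs of library codes, and Gbp5 with limma-voom. With a block on the runs of library codes Dusp7 and Fnip2 lost their calls and 0 genes were sorted as rising late, as without M18, M15 or M19, and 1 was without the first or the third 0 h library. The number of genes higher at 2 h than at 1 h was 0 without M15 or without M19, 1 without M18 and 26 without the second 0 h library (M17). With only M23 or only M22 left out, 0 genes were called in either direction.

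Another 7 genes were higher at 2 h than at 0 h and were called in neither other comparison, and 6 of them carry a gene name. They are named after their values were seen. Enc1, an actin-binding protein gene, was at 86.0, 95.1 and 91.4 CPM at 0 h, 115 and 105 CPM in M14 and M18, 135 and 128 CPM in M15 and M19, 119 CPM in M23 and 111 CPM in M22. All 6 ImP libraries lay above 0 h, and M14, M18 and M22 lay between 0 h and the other ImP libraries. Tent5c, a poly(A) polymerase gene of the mRNA decay and processing list, had log2 fold changes of 0.32 at 1 h and 0.64 at 2 h (SE 0.093), and the kinesin gene Kif21b had 0.27 and 0.54 (SE 0.086). The replication licensing factor gene Cdt1 had 0.27 and 0.46 (SE 0.079), and Pwwp2b, a chromatin protein gene, had 0.12 and 0.56 (SE 0.087). Engase, a glycosidase gene, had 0.31 and 0.64 (SE 0.101), but M23 and M22, at 25.1 and 26.6 CPM, lay within its 0 h range of 21.9 to 27.6 CPM.

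The 5 genes lower at 2 h than at 1 h alone were Gbp5, described above, Tnip3, Ets2, Ppp1r10 and Lilr4b. Tnip3, a partner of A20, was at 22.6, 28.6 and 25.2 CPM at 0 h, 33.5 and 36.2 CPM in M14 and M18, 20.5 and 20.7 CPM in M15 and M19, 25 CPM in M23 and 37.5 CPM in M22, and fell by 0.76 (SE 0.116). The transcription factor gene Ets2 (-0.44, SE 0.080), the phosphatase regulator gene Ppp1r10 (-0.43, SE 0.087) and the inhibitory receptor gene Lilr4b (-0.33, SE 0.066) fell by less. In Tnip3, Ets2, Ppp1r10 and Lilr4b both kept 2 h libraries lay below all 3 unstimulated ones, though none was called there. M23 lay below them for Ppp1r10 alone (37.4 CPM). It was within the 0 h range for Tnip3 and above it for Ets2 (52.8 CPM) and Lilr4b (1056 CPM).

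M22 and M23 lay beside the kept libraries of the other label in nearly all genes called between 1 and 2 h. M23, labelled 1 h, was below M22, labelled 2 h, in 82 of the 82 lower genes and above it in 7 of the 7 higher genes. M22 lay nearer the kept 1 h mean than the kept 2 h mean in all 82 and 7, and M23 nearer the kept 2 h mean in 80 of the 82 and in 7 of the 7. The exceptions were Ets2, with 52.8 CPM in M23 against 58.9 and 43.4 CPM as kept means at 1 h and 2 h, and Lilr4b, with 1056 CPM against 1057 and 841 CPM. The median of M23 minus M22 was -1.34 over the lower genes and 0.46 over the higher ones, on log2(CPM + 0.5), against -1.17 and 0.41 for the kept 2 h minus the kept 1 h libraries. Over all 13465 genes M23 was below M22 in 47.2%. The inflammatory response had chosen these libraries, and the genes were called in a fit without them, so this outcome was largely fixed by the choice. In the 76 returned genes the kept 2 h level was near 0 h, so M23 beside M15 and M19 was also beside 0 h. Their median of M23 minus 0 h was -0.004, and of M22 minus 0 h 1.20. M23 had a chi-square per degree of freedom of 8.80 with the 0 h library M21, 15.5 with M15 and 13.8 with M19. The value was larger still with M13 and M17. For Id2 and Id3 M23 (181 and 36.6 CPM) lay above all 0 h libraries. Whether M23 resembles 0 h was not tested. Outside the genes called between 1 and 2 h, M22 did not always lie with M14 and M18. For mt-Co3, lower at 1 h, M22 held 2522 CPM, above M14 and M18 (1879.8 and 2092 CPM) and also above M15 and M19 (2291 and 2366 CPM). For Rgs2, also lower at 1 h, M22 held 295 CPM, between M14 and M18 (272 and 301 CPM). These are descriptions of 2 libraries, with no test.

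**Figure D4:**
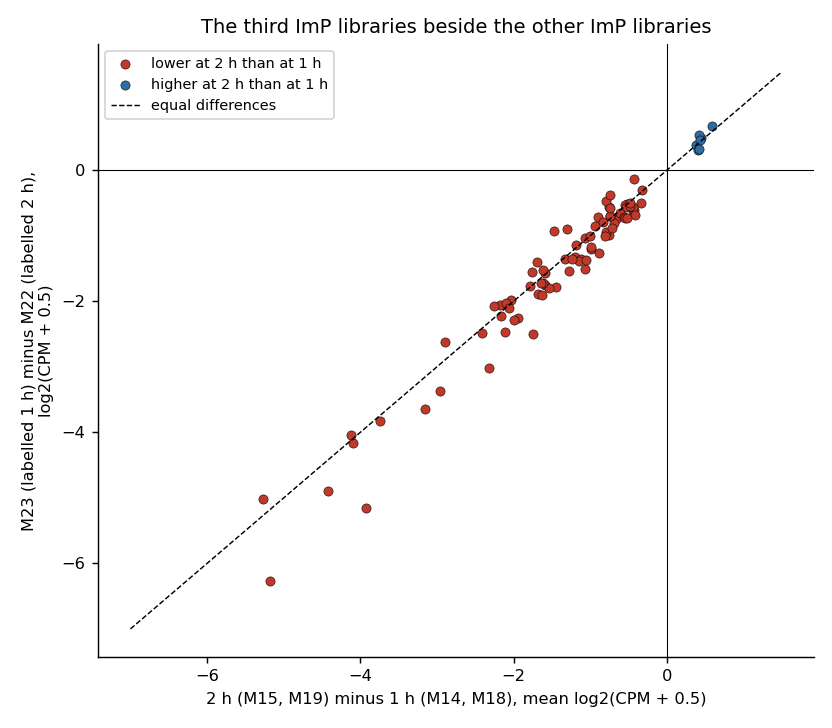
M23 (labelled 1 h) minus M22 (labelled 2 h) against the mean of M15 and M19 minus the mean of M14 and M18, both on log2(CPM + 0.5), for the genes called between 1 and 2 h in the 7-library fit. The points follow the dashed line of equal differences, with the 82 lower genes below 0 and the 7 higher genes above 0 on both axes.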

How the data were processed

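RNA-seq of 9 macrophage libraries was used, from the 27-library table of gene counts the authors deposited. Per the labels' protocols a directional kit was used for the macrophages, and the strand setting of the counting is not given in the sources used here. The submitters' processing notes name cutadapt, FastQC, STAR, RSEM, R 4.3.2, DESeq2 and the GRCm38.p6 build. The deposited values were treated as RSEM expected counts, and all were already whole numbers. They were tested with edgeR 4.0.16 in R 4.3.3 (quasi-likelihood F-test, two-sided, minimum count 10, TMM scaling, robust dispersions) with Benjamini-Hochberg adjustment over all genes and a threshold of 0.05. An SE is the log2 fold change over the root of F, and intervals are 95%. Alternatives used DESeq2 1.42.0 and limma 3.58.1, and the test was checked on simulated data. Differences between libraries used log2(CPM + 0.5).

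The members, lists and tests were chosen with earlier results of these data known. Named genes were the 15 largest falls and 10 largest rises at 2 h against 1 h with a mean of at least 1 CPM, the 10 of each course with the smallest p, up to 4 per list, the 3 of each direction with the smallest p between 2 h and 1 h as labelled (not described, since none was called), and a fixed set that includes Nfkbia, Tnf, Il1b, Cxcl2, Socs3, Zfp36, Dusp1, the Id genes, Smad6, Smad7, Skil, Bhlhe40, Kcnj2, Mef2a, Itgav and Top1. Bcl3, Nfkbid, Fos, Maff, Egr2, Il12b, Osm, Cyth1, Filip1l and Rgs2 were named outside that rule, after their values were seen. Of the genes that rose late, 1 is counted but not reported here. Gene positions are from GENCODE on GRCm38.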

Additional observations from a re-analysis of the deposited data

How the results depend on the processing

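The counts below are of genes called by edgeR unless another tool is named. Direction was followed in 110 genes. None of the 50 of them called at 2 h against 1 h changed direction, while genes near 0 and not called could cross it, such as Smad7 (-0.57 to 0.07) and Id2 (-0.12 to 0.01). As labelled, 2 h against 1 h gave 1 gene with no low-count filter, 1 with DESeq2 and 1 with limma-voom, against 0. For 1 h and 2 h against 0 h, as labelled, no filter gave 9 and 10 genes, DESeq2 13 and 15, and the compared groups alone 5 and 2, against 3 and 4. In the 7 libraries, no filter gave 44 higher and 161 lower genes at 2 h against 1 h, 321 called at 1 h and 163 at 2 h against 0 h, 46 persisted or partly returned and 27 higher late. DESeq2 gave 15 higher at 2 h against 1 h, 35 called at 2 h against 0 h, 12 persisted or partly returned and 13 higher late. The compared groups alone gave 121 higher, 217 lower and 121 higher late. With only the third 1 h library left out there were 0 higher, 0 lower, 7 called at 1 h, 4 called at 2 h, 0 returned and 0 higher late, and with only the third 2 h library left out 0, 0, 7, 5, 0 and 0.

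A replicate block on the runs of library codes gave 3 genes at 2 h against 0 h, 3 persisted or partly returned and 60 returned, of which 58 were among the 76, and 0 that rose late. Skil and Bhlhe40 left the persisted genes, and Cxcl1, Gbp5, Ets2, Ppp1r10, Lilr4b, Dusp7 and Fnip2 lost their calls at 2 h against 1 h. The labels give no replicate numbers, and deviations of libraries of a run correlated between -0.41 and 0.14 as labelled and between -0.05 and 0.10 in the 7 libraries, so the runs were not taken as pairs.

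Leaving out 1 library at a time gave, as labelled, 0 to 0, 2 to 7 and 1 to 6 genes for 2 h against 1 h, 1 h against 0 h and 2 h against 0 h. In the 7 libraries it gave 0 to 26 higher and 55 to 127 lower genes at 2 h against 1 h, 72 to 176 called at 1 h, 3 to 29 called at 2 h, 53 to 107 returned, 3 to 11 persisted or partly returned and 0 to 22 higher late. A group left with 1 library was assumed to vary like the others. Without the second 0 h library there were 127 lower, 29 called at 2 h, 11 persisted or partly returned and 22 higher late. Id3 lost its call at 2 h against 1 h without the first 1 h or the second 2 h library. Low counts limit Olr1, Mir155hg, Il12b and Smad6.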
